A study of Mus musculus with 15 samples.

Results

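The measurements described here are of 10 genes: Arntl, Npas2, Per1, Per2, Per3, Cry2, Nr1d1, Nr1d2, Dbp and Tef. They are circadian clock genes and clock outputs, looked up by Ensembl identifier (version dropped) in the GENCODE mouse annotation. All 10 were found among the 50686 genes of the table, and all 10 passed the filter on low values. They were followed in RNA of quadriceps muscle from 15 adult C57BL/6 offspring, 3 per group, collected at 10 months of age. In the M-HF-Ex group the mother ate a 60% high-fat diet for 6 weeks from 8 weeks of age and had a running wheel in pregnancy. In the M-HF-Sed group the mother ate the same diet and the wheel was locked. The fathers of both groups were lean. In the P-HF-Ex and P-HF-Sed groups the father ate that diet over the same ages and the lean mother had an open or a locked wheel in pregnancy. In the NC-Sed group, the control shared by both arms, the parents ate chow and the wheel was locked. All offspring, controls included, ate chow and were sedentary from the day after birth, so none of them met the diet or the wheel after birth. Exercise was voluntary wheel running by the mother, and which offspring shared a litter, their sex and the hour at which muscle was taken were not stated in the labels. The p-values therefore measure the spread between these samples.

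The circadian clock is a loop of transcription factors that turns over about once a day in nearly every cell. The proteins of Arntl (BMAL1) with its partners CLOCK or NPAS2 bind E-boxes and switch on the Per and Cry genes, whose products block BMAL1 in turn, while the REV-ERB receptors encoded by Nr1d1 and Nr1d2 bind ROR elements and repress Arntl. Dbp and Tef encode PAR bZIP factors that carry the rhythm to other genes through D-boxes, and in mouse tissues followed around the day Arntl and Npas2 peak on the opposite side of the day from Dbp, Nr1d1 and Per3. In skeletal muscle the clock is known for timing genes of fuel use.

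Promoter sequence was available from RefSeq for 9 of the 10 genes (GRCm38.p6, windows of 300 bases around a transcription start), and 4 are shown. Arntl, Per3 and Dbp are the genes whose levels ran most closely with or against each other between libraries, and Per1 stands for the pair it formed with Cry2. Capitals mark the motif letters searched on both strands, namely the E-box CACGTG, the E'-box CACGTT, the D-box TTATGTAA or TTACGTAA, and the ROR element TAGGTCA or TGGGTCA. The Arntl window (chr7:113207261-113207560, plus strand) holds 1 ROR element, the Per3 window (chr4:151044616-151044915, minus strand) holds 2 D-boxes, the first Per1 window (chr11:69098699-69098998, plus strand) holds 1 E-box, and the Dbp window (chr7:45704997-45705296, plus strand) holds none of these letters.
Arntl: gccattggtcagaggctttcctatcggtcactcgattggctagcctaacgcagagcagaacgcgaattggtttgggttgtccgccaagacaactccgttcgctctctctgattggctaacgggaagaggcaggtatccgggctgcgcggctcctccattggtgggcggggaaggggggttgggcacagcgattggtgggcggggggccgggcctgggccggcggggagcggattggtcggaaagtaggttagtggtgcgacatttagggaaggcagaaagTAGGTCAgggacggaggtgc
Per3: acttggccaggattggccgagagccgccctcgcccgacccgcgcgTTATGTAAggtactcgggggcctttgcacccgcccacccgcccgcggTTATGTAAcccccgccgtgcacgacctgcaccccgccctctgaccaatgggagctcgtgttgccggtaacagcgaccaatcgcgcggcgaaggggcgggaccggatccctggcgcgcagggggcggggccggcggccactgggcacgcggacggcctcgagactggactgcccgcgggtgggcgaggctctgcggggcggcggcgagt
Per1: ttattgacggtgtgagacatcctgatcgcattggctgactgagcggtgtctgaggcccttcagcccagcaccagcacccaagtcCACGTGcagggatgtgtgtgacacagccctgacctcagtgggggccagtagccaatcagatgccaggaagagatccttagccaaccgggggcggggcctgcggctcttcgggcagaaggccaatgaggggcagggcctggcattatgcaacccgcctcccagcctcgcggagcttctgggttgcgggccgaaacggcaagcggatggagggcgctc
Dbp: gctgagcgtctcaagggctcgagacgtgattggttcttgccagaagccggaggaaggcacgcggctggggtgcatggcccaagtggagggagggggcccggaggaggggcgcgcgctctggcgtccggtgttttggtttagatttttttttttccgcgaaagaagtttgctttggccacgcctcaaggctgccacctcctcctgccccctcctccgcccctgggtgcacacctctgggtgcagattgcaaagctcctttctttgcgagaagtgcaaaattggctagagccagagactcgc
Over 32851 promoter windows of this length, an E-box was present in 7.15%, an E'-box in 4.68%, a D-box in 1.06% and a ROR element in 6.45%. The D-boxes of Per3 start at positions -205 and -158 from its start site, the E-box of Per1 at -166, and the ROR element of Arntl at 31 past the start. A second Arntl window, which overlaps the one shown, holds none of the motifs. Tef has an E-box at -127 in one window and at -138 in another, Cry2 an E'-box at -166 and Nr1d1 an E'-box at -28. No match was found in the windows of Npas2 and Nr1d2 or in the second window of Per1. A match is a description of the letters and no measure of binding.

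The libraries held 18457663 to 26981745 counted reads each. Summed skeletal muscle markers stood at 191900 to 257900 CPM in every library, so the defining genes of the labelled tissue were present throughout. Hepatocyte markers stood at 3752 CPM in M-HF-Sed replicate 2, 438 in M-HF-Sed replicate 3, 222 in P-HF-Sed replicate 1 and 170.0 in NC-Sed replicate 2, against 10.7 to 34.2 in the other 11. NC-Sed replicate 2 and M-HF-Sed replicate 3 also had the fewest genes with a read, 17699 and 17581 against at least 19062 elsewhere. The sample titles are codes of which the first part takes 7 values, one of them common to all M-HF-Sed libraries and M-HF-Ex replicate 3, and what it stands for is not given. In bulk RNA of this kind, fewer cells of a type and less RNA per cell cannot be told apart.

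All 10 clock genes were expressed in the muscle. Per kilobase of exon, the mean normalized count over the 15 libraries was 1126 ± 230.5 (SD) for Nr1d1, 985 ± 91.6 for Tef and 721 ± 201 for Per1. It was 358.5 ± 92.0 for Cry2, 202 ± 47.7 for Nr1d2, 106 ± 34.2 for Arntl and 77.3 ± 26.5 for Dbp. The lowest were Per3 at 68.5 ± 17.1, Per2 at 54.5 ± 17.7 and Npas2 at 8.53 ± 3.30. In this order of levels per length, Nr1d1, Tef and Per1 overlapped with their neighbours within 1 SD, as did Arntl, Dbp, Per3 and Per2, whereas Cry2, Nr1d2 and Npas2 stood clear of theirs. Npas2 rested on 21 to 76 reads per library and Dbp on 108 to 444, so counting error weighs most on these genes, while Tef had 6476 to 9933 reads.

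Most of these genes varied more between libraries of the same group than the median gene tested. Over the 15 libraries, the highest exceeded the lowest 3.78-fold for Npas2, 3.52-fold for Per2, 3.25-fold for Dbp, 3.07-fold for Arntl and 2.91-fold for Per3, but only 1.41-fold for Tef. On the log2 scale the within-group SD of Npas2 was larger than that of 87.9% of the 13499 genes tested, that of Per2 larger than 86.8%, that of Dbp larger than 82.2% and that of Per1 larger than 81.6%. The corresponding shares were 74.7% for Arntl, 72.8% for Per3, 71.2% for Nr1d2, 63.7% for Cry2, 55.7% for Nr1d1 and 17.3% for Tef. The plot of normalized counts by group shows this spread for each gene.

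**Figure D1:**
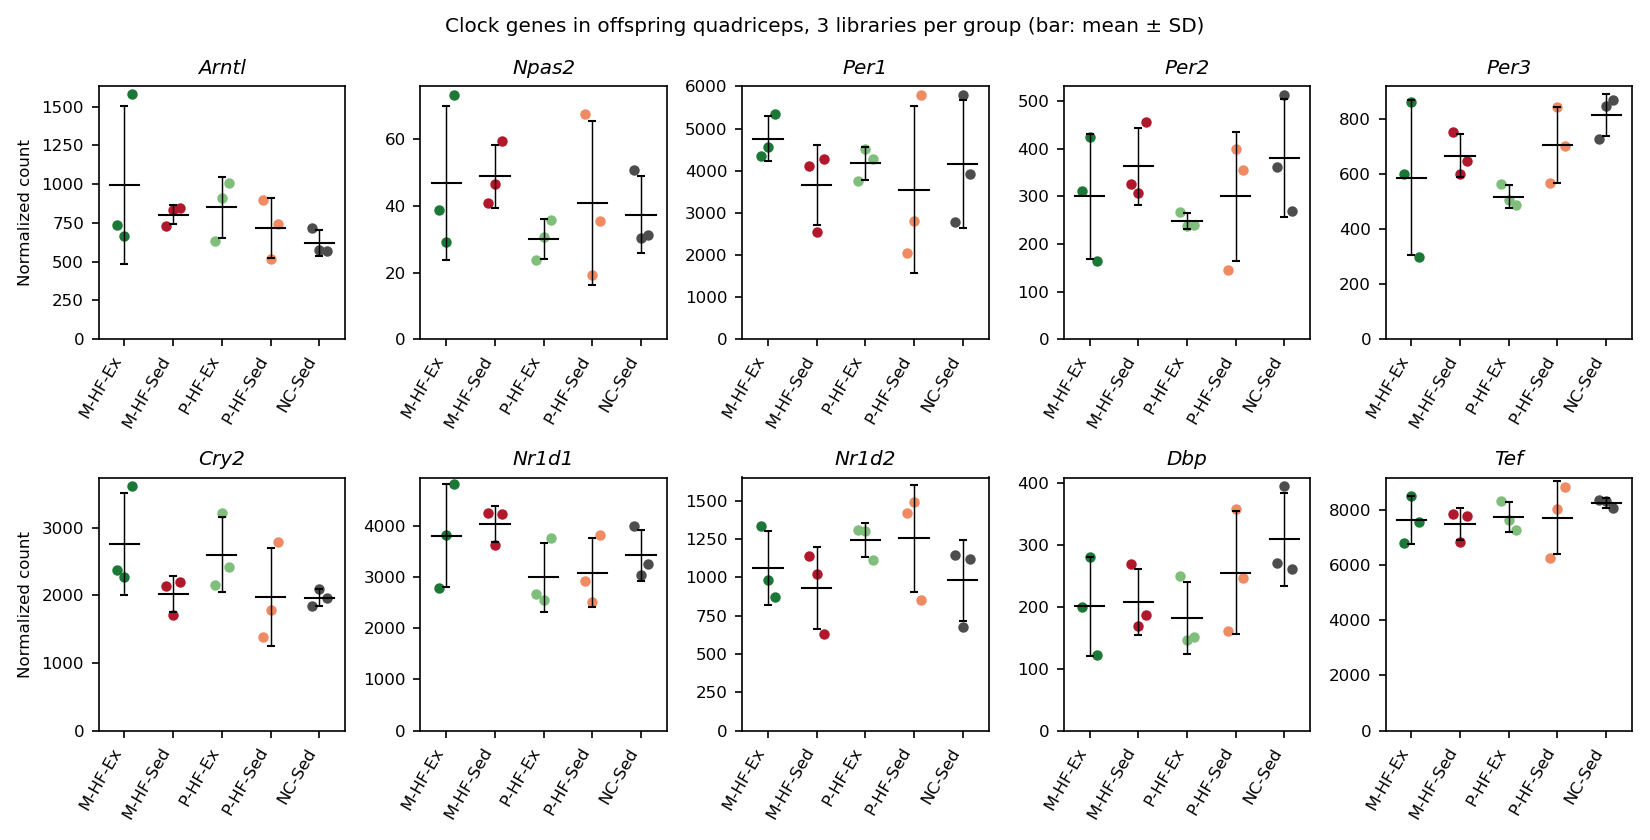
Normalized counts (y axis) of the 10 clock genes in the 5 groups (x axis), with 1 point per library and bars for the mean ± SD of 3 libraries. Points of 1 group are often as far apart as points of different groups, and M-HF-Ex replicate 3 holds the highest Arntl (1578) and the lowest Dbp (122).

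The activator gene Arntl, which encodes BMAL1 (ENSMUSG00000055116.8, chr7:113207465-113314126, plus strand, GRCm38), had normalized counts of 735, 665 and 1578 in M-HF-Ex, 731, 832 and 844 in M-HF-Sed, 631, 913 and 1006 in P-HF-Ex, 897, 514 and 740.3 in P-HF-Sed, and 714, 572 and 568 in NC-Sed (replicates 1, 2 and 3 in that order, here and for the other genes). M-HF-Ex replicate 3 was the highest of all and P-HF-Sed replicate 2 the lowest, and the M-HF-Ex values overlapped those of every other group. Group means ran from 993 ± 508 in M-HF-Ex and 850.1 ± 195 in P-HF-Ex through 802.5 ± 62.0 in M-HF-Sed and 717 ± 193 in P-HF-Sed to 618 ± 83.5 in NC-Sed (SD, n = 3 each), and no neighbours in this order differed beyond their SDs. Npas2, whose product can stand in for CLOCK as the partner of BMAL1 (ENSMUSG00000026077.15, chr1:39193731-39363236, plus strand), had normalized counts of 38.7, 29.1 and 73.2 in M-HF-Ex, 41.0, 46.6 and 59.4 in M-HF-Sed, 23.8, 30.6 and 35.7 in P-HF-Ex, 67.7, 19.4 and 35.4 in P-HF-Sed, and 50.8, 30.3 and 31.1 in NC-Sed. Its highest and lowest libraries were the same as for Arntl, and its values overlapped between groups except that all M-HF-Sed values lay above all P-HF-Ex values, a pair of groups that no comparison of the design joins.

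Among the repressor genes, Per1 (ENSMUSG00000020893.17, chr11:69095217-69109960, plus strand), Per2 (ENSMUSG00000055866.9, chr1:91415982-91459324, minus strand) and Per3 (ENSMUSG00000028957.12, chr4:151003652-151044665, minus strand) encode the PERIOD proteins. Per3 had normalized counts of 599.5, 863 and 299 in M-HF-Ex, 753, 600.3 and 647 in M-HF-Sed, 564, 504 and 486 in P-HF-Ex, 567, 844 and 702 in P-HF-Sed, and 727, 847 and 868 in NC-Sed. Its lowest library was M-HF-Ex replicate 3, the one with the most Arntl, and its 3 P-HF-Ex values lay below all NC-Sed values. Per1 had normalized counts of 4344, 4566 and 5356 in M-HF-Ex, 4121, 2555 and 4283 in M-HF-Sed, 3748, 4518 and 4268 in P-HF-Ex, 2046, 2808 and 5799 in P-HF-Sed, and 2785, 5793 and 3921 in NC-Sed. P-HF-Sed spanned the whole range of Per1, from the lowest library of all (replicate 1) to the highest (replicate 3). Per2 had normalized counts of 313, 426 and 163 in M-HF-Ex, 326, 307 and 457 in M-HF-Sed, 268, 238 and 239.5 in P-HF-Ex, 146, 401 and 355 in P-HF-Sed, and 362, 514 and 269 in NC-Sed. It was lowest in P-HF-Sed replicate 1 and highest in NC-Sed replicate 2. Its P-HF-Ex values lay within a narrow band below all NC-Sed values, though at the nearest only by 268 against 269. Cry2, which encodes a cryptochrome that binds and blocks CLOCK and BMAL1 (ENSMUSG00000068742.11, chr2:92403646-92434043, minus strand), had normalized counts of 2372, 2279 and 3628 in M-HF-Ex, 2146, 1717 and 2195 in M-HF-Sed, 2162, 3224 and 2419 in P-HF-Ex, 1379, 1780 and 2789 in P-HF-Sed, and 1837, 2093 and 1967 in NC-Sed. The M-HF-Ex values of Cry2 stood above all M-HF-Sed and all NC-Sed values, and the P-HF-Ex values above all NC-Sed values.

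The REV-ERB genes encode nuclear receptors that repress Arntl. Nr1d1, which encodes REV-ERB alpha (ENSMUSG00000020889.11, chr11:98767932-98775333, minus strand), had normalized counts of 2784, 3820 and 4804 in M-HF-Ex, 4252, 3628 and 4224 in M-HF-Sed, 2663, 2543 and 3755 in P-HF-Ex, 2911, 2506 and 3824 in P-HF-Sed, and 3982, 3033 and 3241 in NC-Sed. Its highest library was M-HF-Ex replicate 3 and its lowest P-HF-Sed replicate 2, the same libraries as for Arntl. Nr1d2, which encodes REV-ERB beta (ENSMUSG00000021775.10, chr14:18204054-18239127, minus strand), had normalized counts of 1335, 979 and 874 in M-HF-Ex, 1137, 1019 and 630.0 in M-HF-Sed, 1308, 1303 and 1113 in P-HF-Ex, 1419, 1488 and 854 in P-HF-Sed, and 1145, 675 and 1121 in NC-Sed. It was highest in P-HF-Sed replicate 2, where Nr1d1 was lowest, and lowest in M-HF-Sed replicate 3. Nr1d1 shares 263 exon bases with Thra on the opposite strand, and the strand setting of the counting is not given, so reads there cannot be assigned with certainty.

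The output genes Dbp and Tef encode related transcription factors that bind D-boxes. Dbp (ENSMUSG00000059824.12, chr7:45705088-45710203, plus strand) had normalized counts of 199.5, 282 and 122 in M-HF-Ex, 269, 169 and 187 in M-HF-Sed, 249.7, 146 and 151 in P-HF-Ex, 160.4, 359 and 247 in P-HF-Sed, and 271, 396 and 262 in NC-Sed. It was highest in NC-Sed replicate 2 and P-HF-Sed replicate 2, which were among the 3 libraries with the least Arntl, and lowest in M-HF-Ex replicate 3, with P-HF-Ex values all below the NC-Sed values. Dbp shares 539 exon bases with Sphk2 on the opposite strand, with the same limit as for Nr1d1, and Cry2 shares 295 with D930015M05Rik. Tef (ENSMUSG00000022389.14, chr15:81802421-81826863, plus strand) had normalized counts of 6777, 8506 and 7559 in M-HF-Ex, 7844, 6812 and 7762 in M-HF-Sed, 8300, 7628 and 7248 in P-HF-Ex, 6250, 8025 and 8832 in P-HF-Sed, and 8361, 8303 and 8040 in NC-Sed. It varied least of the 10, and its M-HF-Sed values lay below all NC-Sed values.

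The libraries were then compared with each other to ask whether the 10 genes moved together, since a phase of the clock would raise some and lower others. Arntl ran against Dbp and Per3 from library to library, and with Npas2. Over the 15 libraries, on log2(normalized count + 1), Pearson's r between Arntl and Dbp was -0.895 and Spearman's rho -0.914 (two-sided permutation test with 100000 resamples, p = 1e-05 for both, the smallest that they can give, and adjusted p = 0.00045 for both by Benjamini-Hochberg over the 45 pairs of the 10 genes). Without the 2 libraries farthest from the median of Arntl, M-HF-Ex replicate 3 and P-HF-Sed replicate 2, r was -0.892. With Per3 the r of Arntl was -0.913 and rho -0.811 (permutation test, p = 3e-05 and 0.00055, adjusted p = 0.000675 and 0.00765), and r was -0.798 without those libraries. With Npas2 it was 0.735 and rho 0.671 (permutation test, p = 0.00141 and 0.00765, adjusted p = 0.0106 and 0.043), and r was 0.511 without them. The libraries rich in Arntl were thus poor in Dbp and Per3. Npas2 itself did not pass against Dbp (r = -0.629, rho = -0.564, permutation adjusted p = 0.0563 and 0.0886). Nor did it pass against Per3 (r = -0.532, rho = -0.4, permutation adjusted p = 0.114 and 0.289).

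The relations of Arntl with Dbp, Per3 and Npas2 held inside the groups. For deviations from the group means, tested by exact permutation of libraries within groups (7776 orders), r between Arntl and Dbp was -0.878 (exact p = 0.00206, adjusted p = 0.0154), between Arntl and Per3 -0.918 (exact p = 0.000386, adjusted p = 0.00579), and between Arntl and Npas2 0.897 (exact p = 0.000257, adjusted p = 0.00579). Npas2 ran against Per3 (r = -0.822, exact p = 0.000772, adjusted p = 0.00868) and Dbp (r = -0.87, exact p = 0.00309, adjusted p = 0.0198) as well. The pattern therefore does not rest on differences between group means. For libraries sharing the first part of the title code (12 libraries in 4 codes, each too small for an r of its own), deviations from the code means gave -0.904 between Arntl and Dbp (exact permutation test, p = 0.00347, adjusted p = 0.0694) and -0.937 between Arntl and Per3 (p = 0.00926, adjusted p = 0.0781), an alternative added after seeing the data. Both values were as large as over all libraries but did not pass after adjustment. By the same exact permutation test Arntl with Npas2 was at 0.653 (p = 0.0203, adjusted p = 0.13) and Per3 with Dbp at 0.889 (p = 0.000579, adjusted p = 0.026), the 1 pair of 45 that passed. Npas2 was at -0.418 with Per3 and -0.596 with Dbp within title codes (exact permutation test, adjusted p = 0.492 for both).

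**Figure D2:**
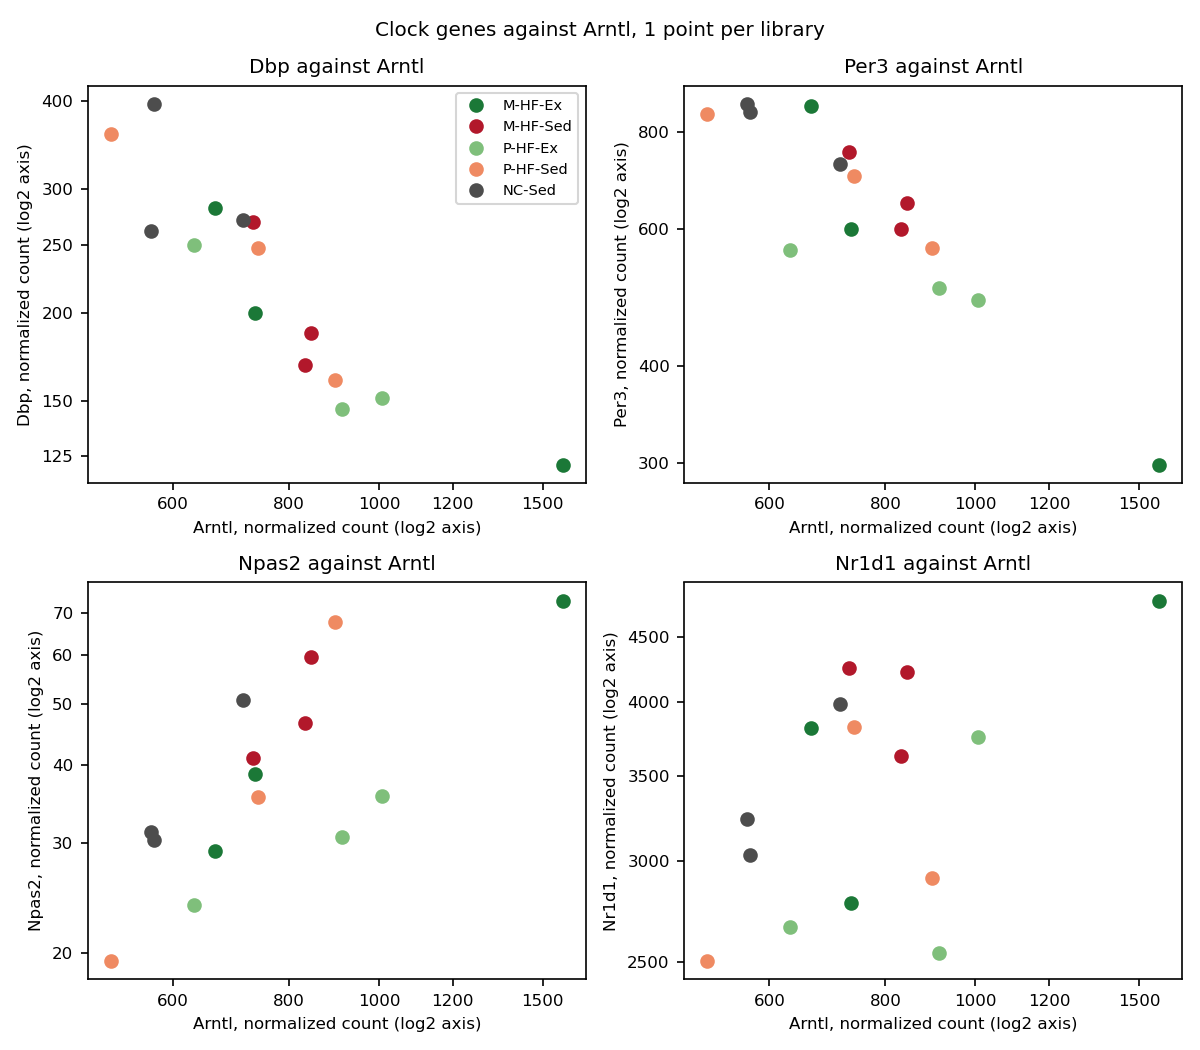
Normalized counts of Dbp, Per3, Npas2 and Nr1d1 (y axes, log2 scale) against those of Arntl (x axes, log2 scale), with 1 point per library coloured by group. Dbp (r = -0.895) and Per3 (r = -0.913) fall as Arntl climbs, Npas2 climbs with it (r = 0.735), and Nr1d1 has r = 0.513 with M-HF-Ex replicate 3 and P-HF-Sed replicate 2 and 0.099 without them.

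Other pairs separated into a Dbp set and a Per1 set. Dbp went with Per3 (r = 0.868, rho = 0.864, permutation p = 5e-05 and 0.00014, adjusted p = 0.00075 and 0.00315) and with Per2 (r = 0.747, rho = 0.775, permutation p = 0.00124 and 0.00106, adjusted p = 0.0106 and 0.00954). Per2 went with Per3 (r = 0.733, rho = 0.725, permutation p = 0.00168 and 0.00322, adjusted p = 0.0108 and 0.0241) and against Arntl (r = -0.658, rho = -0.579, permutation p = 0.00765 and 0.0257, adjusted p = 0.043 and 0.077). Without the 2 libraries farthest from the median of the first-named gene of each pair, r was 0.893 for Per3 with Dbp, 0.655 for Per2 with Dbp, 0.671 for Per2 with Per3 and -0.483 for Arntl with Per2. Within groups the relations of Per2 did not pass: for deviations from the group means r was 0.733 with Per3, -0.7 with Arntl and 0.798 with Dbp (exact permutation test, adjusted p = 0.164, 0.168 and 0.0535). Per3 with Dbp (r = 0.825) and Per1 with Cry2 (r = 0.808) did (exact permutation test, adjusted p = 0.015 and 0.00579). Per1 went with Cry2 (r = 0.806, rho = 0.796, permutation p = 0.00026 and 0.00068, adjusted p = 0.00292 and 0.00765, and r = 0.666 without the 2 libraries farthest from the median of Per1). Neither Per1 nor Cry2 passed with Arntl, at r = 0.13 and 0.52 (permutation test, adjusted p = 0.763 and 0.118). In all, 8 of 45 pairs passed an adjusted p of 0.05 for r, 5 of them positive and 3 negative.

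Nr1d1 did not run against Arntl as Dbp and Per3 did. Its r with Arntl was 0.513 and rho 0.343 (permutation test, p = 0.0455 and 0.212, adjusted p = 0.114 and 0.381), and r was 0.099 without M-HF-Ex replicate 3 and P-HF-Sed replicate 2. Leaving out 1 library at a time gave r of 0.291 to 0.64, and the value passed without P-HF-Ex replicate 2 (r = 0.64, permutation adjusted p = 0.0472). Nr1d2 was at r = -0.159 with Arntl and -0.593 with Nr1d1 (rho = -0.657, permutation p = 0.0195 and 0.00898, adjusted p = 0.0677 and 0.0449). Tef was at r = 0.627 with Dbp (rho = 0.696, permutation p = 0.0125 and 0.0051, adjusted p = 0.0563 and 0.0328) and -0.429 with Arntl. Nr1d2 with Nr1d1 and Tef with Dbp thus passed by rank and not by r.

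**Figure D3:**
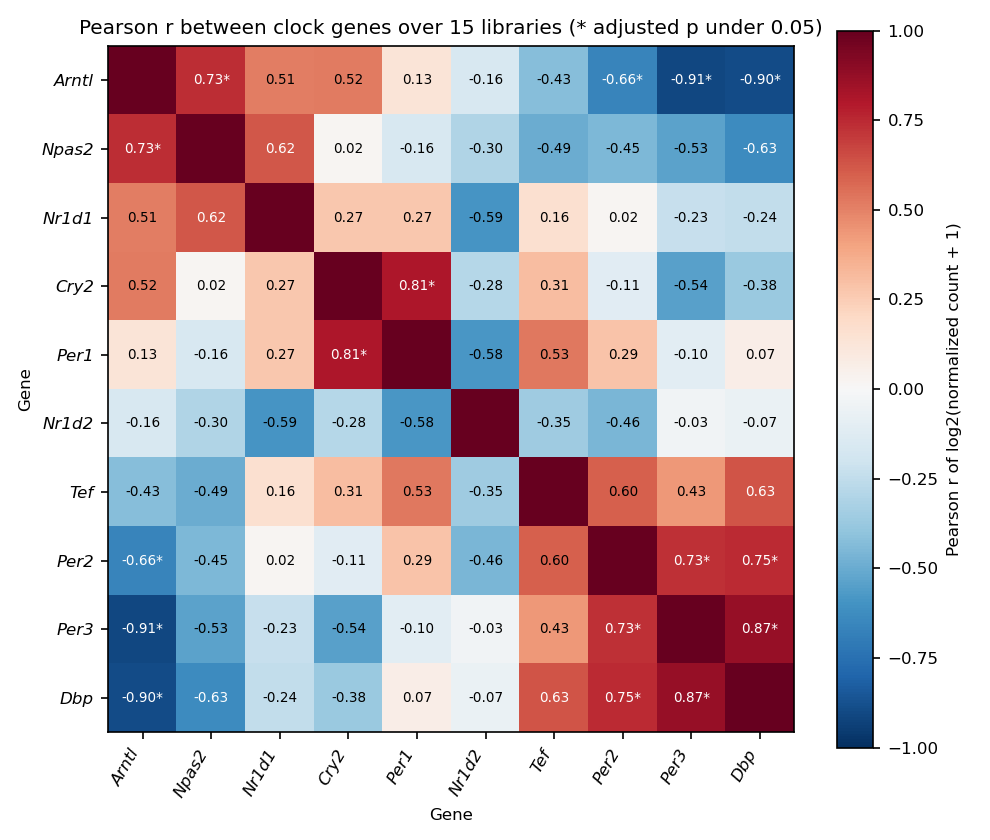
Pearson r of log2(normalized count + 1) over 15 libraries for each pair of the 10 clock genes (rows and columns), on a scale from blue (-1) to red (1), with an asterisk for a permutation p under 0.05 after adjustment over 45 pairs. Arntl lies opposite Per2, Per3 and Dbp, Npas2 has negative r with them that did not pass, and Per1 pairs with Cry2 (0.806).

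Set against all genes, the opposition to Arntl was extreme. Among 10389 genes with a mean of at least 50, Per3 had the lowest r with Arntl and Dbp the second lowest, and Arntl had the lowest r with Dbp. Per2 ranked 91 from the lowest with Arntl. Ranks are a description, since genes are not independent replicates and all values come from the same 15 libraries.

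A clock index was made for each library, the mean log2(normalized count + 1) of Nr1d1, Nr1d2, Dbp, Tef and Per3 minus that of Arntl and Npas2, and is given without a test. Not all of its genes moved in the direction it gives them. Nr1d1 was at r = 0.513 with Arntl and -0.243 with Dbp, and Nr1d2 at -0.069 with Dbp. The index is therefore a description of the libraries and no measure of phase. The index was 2.87, 3.41 and 1.59 in M-HF-Ex, 3.10, 2.60 and 2.41 in M-HF-Sed, 3.40, 2.74 and 2.61 in P-HF-Ex, 2.26, 3.92 and 3.07 in P-HF-Sed, and 2.96, 3.405 and 3.43 in NC-Sed offspring. M-HF-Ex replicate 3 and P-HF-Sed replicate 2 were the extremes, and each of the 4 high-fat groups overlapped the range of NC-Sed. Group means were 2.62 ± 0.93 in M-HF-Ex, 2.71 ± 0.36 in M-HF-Sed, 2.92 ± 0.42 in P-HF-Ex, 3.08 ± 0.83 in P-HF-Sed and 3.27 ± 0.27 in NC-Sed (SD, n = 3 each). Neighbouring means were closer than these SDs, and the SD within groups was 0.624. Log2 Dbp minus log2 Arntl alone was -3.69 in M-HF-Ex replicate 3 and -0.52 in P-HF-Sed replicate 2, with a median of -1.58 over the 15 libraries.

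Libraries differed in log2 Dbp minus log2 Arntl both within and between title codes. In the code that joins the M-HF-Sed libraries and M-HF-Ex replicate 3, log2 Dbp minus log2 Arntl ran from -3.69 to -1.44, and in the code that joins P-HF-Ex replicate 2 with P-HF-Sed replicates 1 and 2 it ran from -2.64 to -0.52. In the code of NC-Sed replicates 1 and 2 with P-HF-Ex replicate 1 it ran from -1.39 to -0.53, above the whole range of the M-HF-Sed code. The mean was -1.09 ± 0.48 in this code and -2.40 ± 0.94 in the M-HF-Sed code (SD), beside an SD of 0.87 over all libraries. The M-HF-Sed code holds every library of that group, so code and group cannot be told apart there. No label states the hour of collection, and its part in the relations between these genes was not tested.

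**Figure D4:**
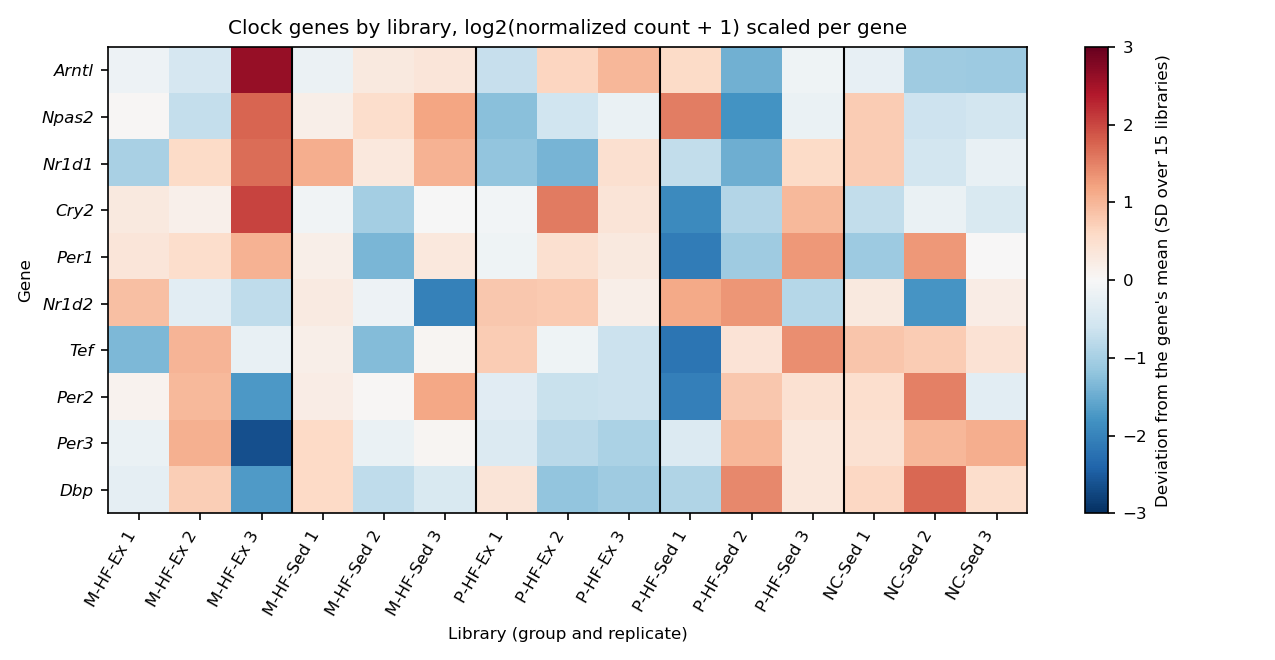
Deviation of each clock gene (rows) from its mean over 15 libraries, in SD of log2(normalized count + 1), for each library (columns, ordered by group). M-HF-Ex replicate 3 combines the highest Arntl, Npas2, Nr1d1 and Cry2 with the lowest Per3 and Dbp, and P-HF-Sed replicate 2 has the lowest Arntl and Npas2.

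The groups were compared next, to ask whether a parental high-fat diet or exercise in pregnancy left the clock genes of the offspring at another level. None of the 10 genes passed in any of the 9 comparisons with limma at a Benjamini-Hochberg adjusted p of 0.05 over 13499 genes, where the share of all genes called was 0% in each, and edgeR, DESeq2 and limma voom called none of the 10 either. The F test for any difference among the 5 groups gave its lowest adjusted p for Cry2 (limma, adjusted p = 0.715), with none of the 10 at an unadjusted p under 0.05, against 6.71% of all genes. Differences below are on log2(normalized count + 1) with their standard errors and adjusted p by limma.

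With exercise in the maternal arm, Cry2 averaged 2759 ± 753 in M-HF-Ex and 2019 ± 263 in M-HF-Sed offspring (SD, n = 3), a log2 difference of 0.43 ± 0.23 (adjusted p = 0.533, 95% interval -0.07 to 0.92). Per1 averaged 4755 ± 532 in M-HF-Ex and 3653 ± 954 in M-HF-Sed offspring, a difference of 0.41 ± 0.32 (adjusted p = 0.606). These were the 2 of 10 genes whose values did not overlap with exercise, both higher, where 8.56% of all genes were higher and 8.61% lower without overlap. For both genes the nearest values of M-HF-Ex and M-HF-Sed were close. Arntl (0.20 ± 0.28), Dbp (-0.10 ± 0.33) and Per3 (-0.31 ± 0.27) differed by about their standard errors or less. Without M-HF-Ex replicate 3 the difference of Arntl was -0.20 ± 0.23 and that of Per3 0.12 ± 0.19, so the sign of both turns on this library. Of the 10 genes 0 had an unadjusted p under 0.05, against 9.54% of all genes. All 16 hepatocyte markers (median log2 difference -5.18, all 16 at an unadjusted p under 0.05) and all 6 Schwann cell markers (-0.43, 0 of 6) had lower means in M-HF-Ex than in M-HF-Sed, none passing. Without the 4 libraries with raised hepatocyte markers, which leaves 1 M-HF-Sed library, Cry2 was at 0.33 ± 0.31 and Per1 at 0.20 ± 0.32 (limma, adjusted p = 1 for both), with the lone sample assumed to vary like the other groups.

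Against controls, Per3 averaged 587 ± 283 in M-HF-Ex and 814 ± 76.4 in NC-Sed offspring (SD, n = 3), with a log2 difference of -0.60 ± 0.27 (limma, unadjusted p = 0.0444, adjusted p = 0.566). It was the 1 gene of 10 at an unadjusted p under 0.05, against 8.76% of all genes. Arntl (0.58 ± 0.28) and Dbp (-0.68 ± 0.33) had 95% intervals that just included 0, from -0.02 to 1.18 and from -1.38 to 0.03. Without M-HF-Ex replicate 3, Per3 was at -0.17 ± 0.19, Arntl at 0.19 ± 0.23 and Dbp at -0.36 ± 0.33. Cry2 (0.46 ± 0.23) was the 1 gene without overlap, higher, where 5.54% of all genes were higher and 4.72% lower without overlap. All 6 Schwann cell markers had lower means in M-HF-Ex than in NC-Sed (median log2 difference -0.71, 4 of 6 at an unadjusted p under 0.05, none passing). Their summed levels were 112.0 to 169 CPM in M-HF-Ex and 139 to 327 CPM in NC-Sed, and their part in these differences was not tested.

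In M-HF-Sed offspring against controls, Arntl averaged 802.5 ± 62.0 in M-HF-Sed and 618 ± 83.5 in NC-Sed (0.38 ± 0.28, adjusted p = 1) and Tef 7473 ± 574 in M-HF-Sed and 8235 ± 171 in NC-Sed (-0.14 ± 0.13, adjusted p = 1). Neither gene's values overlapped between the groups, which holds for 4.44% of all genes in the higher and 3.58% in the lower direction. Dbp averaged 208 ± 53.5 in M-HF-Sed and 309.6 ± 74.9 in NC-Sed offspring (-0.57 ± 0.33). No gene of the 10 had an unadjusted p under 0.05, against 4.04% of all genes. All 16 hepatocyte markers had higher means in M-HF-Sed than in NC-Sed (median log2 difference 4.44, 10 of 16 at an unadjusted p under 0.05, none passing), and all 6 adipocyte (-0.40) and all 5 erythrocyte markers (-0.25) had lower means. Without the 4 libraries with raised hepatocyte markers, Arntl was at 0.20 ± 0.45 and Dbp at 0.015 ± 0.44 (limma, adjusted p = 1 for both), with 1 library left in M-HF-Sed. The part of the adipocyte and erythrocyte markers was not tested.

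In the paternal arm, exercise gave the same size of difference in Cry2, which averaged 2602 ± 554 in P-HF-Ex and 1983 ± 726 in P-HF-Sed offspring (0.43 ± 0.23, adjusted p = 0.991), with overlapping values. It was 0.20 ± 0.23 without P-HF-Sed replicate 1 and 0.71 ± 0.21 without P-HF-Sed replicate 3. With a term for the title code, which sets P-HF-Ex replicate 2 against P-HF-Sed replicates 1 and 2, it was 1.04 ± 0.20 (adjusted p = 0.0938). Per3 averaged 518 ± 41.0 in P-HF-Ex and 704 ± 138 in P-HF-Sed offspring (-0.43 ± 0.27, adjusted p = 0.991) and was the 1 gene without overlap, lower, where 5.5% of all genes were lower and 5.11% higher without overlap. For Per3 the nearest values of P-HF-Ex and P-HF-Sed were almost equal. All 5 erythrocyte markers had higher means in P-HF-Ex than in P-HF-Sed (median log2 difference 1.09, 5 of 5 at an unadjusted p under 0.05, none passing). Their summed levels were 65.1 to 135 CPM in P-HF-Ex and 33.1 to 65.1 CPM in P-HF-Sed, and their part was not tested. No gene of the 10 had an unadjusted p under 0.05, against 3.76% of all genes. The exercise effects of the arms were compared directly, and no gene of the 10 passed in the maternal minus the paternal difference. It was -0.01 ± 0.33 for Cry2 (95% interval -0.71 to 0.69) and 0.35 ± 0.47 for Dbp (-0.65 to 1.35), with 0 of 10 at an unadjusted p under 0.05 against 1.8% of all genes. In this difference all 16 hepatocyte (median -4.86), all 5 erythrocyte (-1.02) and all 6 Schwann cell markers (-0.27) were below 0. At an unadjusted p under 0.05 were 1, 0 and 0 of them, none passed, and their part was not tested.

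In P-HF-Ex offspring against controls, 6 of the 10 genes had lower means, Dbp and Per3 by the most. Dbp averaged 182 ± 58.4 in P-HF-Ex and 309.6 ± 74.9 in NC-Sed offspring (SD, n = 3), a log2 difference of -0.78 ± 0.33 (limma, unadjusted p = 0.033, adjusted p = 0.336). Per3 averaged 518 ± 41.0 in P-HF-Ex and 814 ± 76.4 in NC-Sed offspring, a difference of -0.65 ± 0.27 (limma, unadjusted p = 0.0302, adjusted p = 0.33). These 2 of 10 genes had an unadjusted p under 0.05, as had 13.7% of all genes. Dbp, Per2 and Per3 were lower and Cry2 higher without overlap, 3 of 10 and 1 of 10 genes where all genes gave 8.7% and 11.7%. For Per2 the nearest values of P-HF-Ex and NC-Sed were almost equal. Cry2 averaged 2602 ± 554 in P-HF-Ex and 1966 ± 128 in NC-Sed offspring (0.39 ± 0.23). All 6 Schwann cell markers had lower means here too (median log2 difference -0.75, 4 of 6 at an unadjusted p under 0.05, none passing). Their summed levels were 113 to 157 CPM in P-HF-Ex and 139 to 327 CPM in NC-Sed, and their part was not tested. Without the 4 libraries with raised hepatocyte markers, NC-Sed replicate 2 among them, Dbp was at -0.59 ± 0.33 and Per3 at -0.62 ± 0.33 (limma, adjusted p = 0.81 for both).

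In P-HF-Sed offspring against controls, the largest differences were in Per2 (-0.42 ± 0.37), Nr1d2 (0.35 ± 0.26) and Dbp (-0.33 ± 0.33), all with an adjusted p of 0.92 by limma. Values of each of the 10 genes overlapped, where 2.64% of all genes were higher and 3.05% lower without overlap, and none had an unadjusted p under 0.05, against 2.87% of all genes. All 5 erythrocyte markers (median log2 difference -1.09, 5 of 5 at an unadjusted p under 0.05) and all 6 Schwann cell markers (-0.63, 4 of 6) had lower means in P-HF-Sed than in NC-Sed, none passing, and their part was not tested. Without the 4 libraries with raised hepatocyte markers, P-HF-Sed replicate 1 and NC-Sed replicate 2 among them, Per2 was at 0.27 ± 0.34 and Dbp at 0.16 ± 0.36 (limma, adjusted p = 1 for both), the other sign. Between the sedentary groups, Nr1d1 averaged 4034 ± 353 in M-HF-Sed and 3081 ± 675 in P-HF-Sed offspring (0.41 ± 0.21, adjusted p = 0.723), and none of the 10 passed or had an unadjusted p under 0.05, against 4.35% of all genes. Values of all 10 overlapped, where 3.99% of all genes were higher and 3.19% lower without overlap. All 16 hepatocyte (median log2 difference 4.01, 5 of 16 at an unadjusted p under 0.05), all 5 erythrocyte (0.83, 0 of 5) and all 6 Schwann cell markers (0.27, 0 of 6) had higher means in M-HF-Sed than in P-HF-Sed, none passing, and their part was not tested. Comparisons with the NC-Sed group share the same 3 control libraries.

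**Figure D5:**
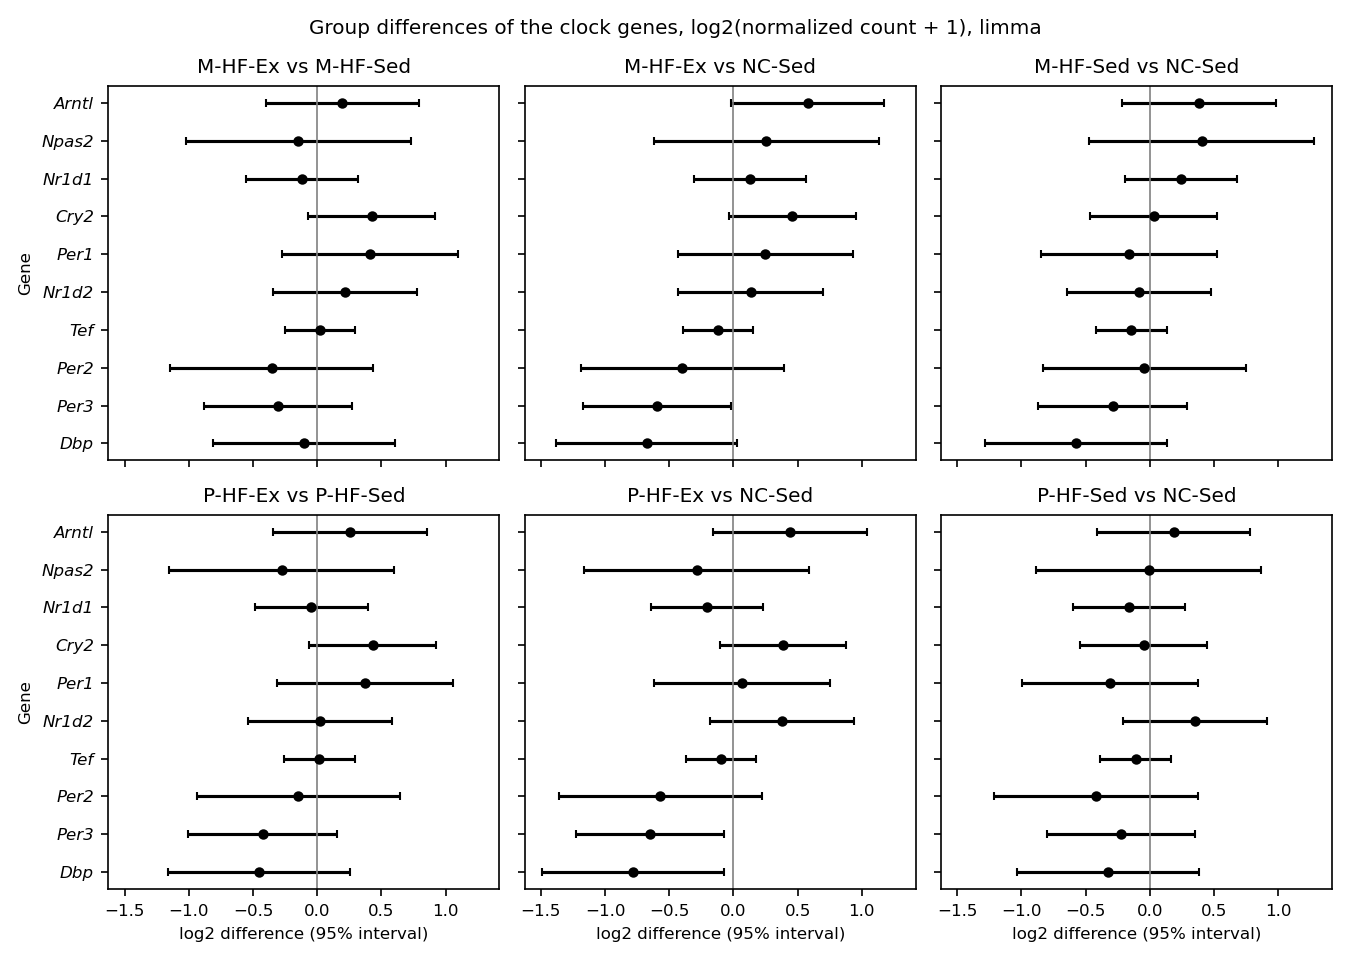
Log2 differences (x axis, dots) with 95% intervals (bars) of the 10 clock genes (y axis) for 6 comparisons, with the group named first minus the group named after it. Intervals exclude 0, before any adjustment, for Per3 in M-HF-Ex against NC-Sed and for Dbp and Per3 in P-HF-Ex against NC-Sed.

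Over the 10 genes, 4 had a higher and 6 a lower mean in M-HF-Sed than in NC-Sed, with a median log2 difference of -0.06 beside 0.01 for all genes. In the M-HF-Ex to M-HF-Sed comparison 5 were higher (median -0.04 beside 0.00), in M-HF-Ex to NC-Sed 6 (0.13 beside 0.02), and in P-HF-Ex to P-HF-Sed 5 (-0.01 beside 0.01). In P-HF-Ex to NC-Sed 4 were higher (-0.15 beside 0.00), and in P-HF-Sed to NC-Sed 2 (-0.14 beside 0.01). Higher and lower means were thus mixed among the 10 genes, most evenly with exercise.

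The rest of the clock was read from 18 further genes, of which 16 had enough reads to be tested and none passed in any comparison. Rorb and Fbxl21 stood at 0 to 2.03 and 0 to 10.8 normalized counts and were not tested. Rora, which activates Arntl through ROR elements, averaged 2360 ± 709 in M-HF-Ex, 1449 ± 270.2 in M-HF-Sed, 2501 ± 541 in P-HF-Ex, 1823 ± 668 in P-HF-Sed and 1427 ± 442 in NC-Sed offspring (SD, n = 3 each). Clock, whose product is the usual partner of BMAL1, averaged 556 ± 145 in M-HF-Ex, 378 ± 104 in M-HF-Sed, 591 ± 46.2 in P-HF-Ex, 500.1 ± 220 in P-HF-Sed and 344 ± 76.5 in NC-Sed. Both had higher means in both exercised groups than in the sedentary group of their arm. The log2 difference of Rora was 0.67 ± 0.30 in the maternal and 0.50 ± 0.30 in the paternal arm (limma, adjusted p = 0.516 and 0.991), and that of Clock 0.56 ± 0.30 and 0.33 ± 0.30 (limma, adjusted p = 0.527 and 0.991). Against NC-Sed, 4 of the 16 had an unadjusted p under 0.05 in M-HF-Ex and 4 in P-HF-Ex, where all genes gave 8.76% and 13.7%.

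Genes driven by the clock in muscle, 15 of which were tested, did not pass either. Myod1, a regulator of muscle differentiation, averaged 78.4 ± 18.7 in M-HF-Ex, 104 ± 20 in M-HF-Sed, 64.2 ± 23.0 in P-HF-Ex, 107 ± 32.5 in P-HF-Sed and 145 ± 36.6 in NC-Sed offspring, with the lowest adjusted p of this list in P-HF-Ex against NC-Sed (-1.21 ± 0.31, limma adjusted p = 0.284). The cell cycle inhibitor gene Cdkn1a was at 1.24 ± 0.41 in M-HF-Ex against NC-Sed and at 1.21 ± 0.41 in P-HF-Ex against NC-Sed. The tetraspanin gene Tspan4 was at -0.11 ± 0.19 and -0.53 ± 0.19 in the same comparisons.

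Glucocorticoids set peripheral clocks and raise Per1, so 10 genes that respond to them were read as well. With exercise 9 of 10 had a higher mean in the maternal arm (median log2 difference 0.47, beside 0.00 for all genes) and 10 of 10 in the paternal arm (0.58, beside 0.01), and none passed. Ddit4, an inhibitor of mTORC1, averaged 5410 ± 1446 in M-HF-Ex and 2200 ± 980 in M-HF-Sed offspring (1.37 ± 0.69, limma adjusted p = 0.52), and 5200 ± 2343 in P-HF-Ex and 2472 ± 2966 in P-HF-Sed (1.68 ± 0.69, limma adjusted p = 0.991). Mt1, a metallothionein, averaged 766 ± 469 in M-HF-Ex and 315 ± 123 in M-HF-Sed, and 657 ± 317 in P-HF-Ex and 345 ± 222 in P-HF-Sed. Klf9 differed by 0.16 ± 0.15 in the maternal and 0.35 ± 0.15 in the paternal arm. The share of genes at an unadjusted p under 0.05 was 1 of 10 and 3 of 10, where all genes gave 9.54% and 3.76%. Of 11 temperature and stress response genes, 8 in the maternal and 5 in the paternal arm had higher means with exercise, and none passed. Hspa1a (-0.30 ± 0.28 and -0.56 ± 0.28), Hspa1b (-0.42 ± 0.36 and -0.75 ± 0.36) and Hsph1 (0.16 ± 0.17 and 0.28 ± 0.17), heat shock proteins, had the smallest F test p of that list.

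Across libraries, a few of these genes ran with or against Arntl or Dbp. A second family of 104 relations, added after seeing the data, set the 52 tested genes of these lists against Arntl and Dbp, and 11 passed for r. The share of all genes that would pass the same test is not given. The count of 11 is therefore no evidence that these lists hold more such genes than others. Pdk4, the kinase that shuts pyruvate out of oxidation, had normalized counts of 97590, 75390 and 129200 in M-HF-Ex, 75410, 84610 and 71570 in M-HF-Sed, 78930, 115600 and 102400 in P-HF-Ex, 100800, 70890 and 67200 in P-HF-Sed, and 74840, 52390 and 78720 in NC-Sed. It was highest in M-HF-Ex replicate 3, where Arntl was highest and Dbp lowest, and lowest in NC-Sed replicate 2, where Dbp was highest. Its r was -0.885 with Dbp (rho = -0.821, permutation p = 3e-05 and 0.00044, adjusted p = 0.00312 and 0.0229) and 0.783 with Arntl (rho = 0.679, permutation p = 0.00058 and 0.0066, adjusted p = 0.0166 and 0.0751), and without the 2 libraries farthest from the anchor's median it was -0.816 and 0.698.

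Bhlhe40, a repressor that competes at E-boxes, ran with Dbp (r = 0.847, rho = 0.811, permutation p = 0.00011 and 0.00044, adjusted p = 0.00572 and 0.0229) and against Arntl (r = -0.763, permutation adjusted p = 0.0241). Usp2, a ubiquitin protease whose RNA cycles in many tissues, did so too (r = 0.785 and -0.738, permutation adjusted p = 0.0166 and 0.0242). Without the 2 libraries farthest from the anchor's median, Usp2 was at 0.715 with Dbp and -0.545 with Arntl. Its relation with Arntl thus leans in part on those libraries. With Arntl went Junb (r = 0.744), Klf9 (r = 0.702) and Cdkn1a (r = 0.701), with permutation adjusted p of 0.0241, 0.0305 and 0.0305, which were at 0.45, 0.496 and 0.386 without M-HF-Ex replicate 3 and P-HF-Sed replicate 2, so these 3 lean on those libraries. Sgk1 went with Dbp (r = 0.696, permutation adjusted p = 0.0405). By rank, 2 of these 11 passed, Pdk4 and Bhlhe40 with Dbp. Counted from the highest r among 10389 genes with a mean of at least 50, Pdk4 was number 35 and Cdkn1a number 122 with Arntl. Bhlhe40 was number 4 and Usp2 number 22 with Dbp. Counted in the same way, Pdk4 was number 10380 with Dbp. Among the other clock genes that did not pass, r with Arntl was 0.667 for Nfil3, which represses through D-boxes, -0.653 for Hlf, a PAR bZIP relative of Dbp, and -0.708 for Bhlhe41, the paralog of Bhlhe40. It was 0.426 for Clock, 0.472 for Rora, -0.221 for the cryptochrome gene Cry1 and -0.151 for the repressor gene Ciart. For the kinase genes it was 0.571 for Csnk1d and 0.43 for Csnk1e, and for the ubiquitin ligase genes 0.295 for Btrc and 0.622 for Fbxw11.

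Outside the 10 clock genes, those most like Arntl over the 15 libraries, among 10389 with a mean of at least 50, were Tle1 (r = 0.933), Ets2 (0.894), Cblb (0.884), Tshz1 (0.841), Myc (0.84), Fhl3 (0.832), Maml1 (0.829) and Lmbr1l (0.828). Those most like Dbp were Asb8 (r = 0.909), Sh3rf2 (0.893), Vwa1 (0.851), Bhlhe40 (0.847), Ptpn14 (0.846), Lmod3 (0.839), BC004004 (0.833) and Snai3 (0.827). Bhlhe40 is the listed clock gene already given above. All were picked for these values out of all these genes in the same libraries, so no test is given here. For deviations from the group means, r was 0.942 for Tle1 with Arntl and 0.926 for Sh3rf2 with Dbp.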

How the data were processed

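RNA of quadriceps from 15 offspring was sequenced with ribosomal RNA depletion, per the labels' protocols. Reads were aligned with STAR 2.5.2b to mm10 and counted with featureCounts 1.5.2, and DESeq2 1.11.8 is named, per the submitters' processing notes. The deposited values are a signal per gene, counts divided by the size factor of the sample by the authors. All values (100%, tolerance 0.001) were whole multiples of 1 step per sample, so reads were recovered for the count tests, and depth was 18457663 to 26981745 reads. Gene symbols came from GENCODE M21 (50376 of 50686 genes, 99.4%), and promoter sequences from RefSeq (GRCm38.p6).

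Values were analysed as log2(normalized count + 1) with limma 3.58.1 in R 4.3.3 over all 5 groups. Only the 13499 genes averaging 10 or more were tested (37187 were not), with Benjamini-Hochberg adjustment over all genes. Alternatives were edgeR 4.0.16, DESeq2 1.42.0, limma voom, other pseudocounts, filters and scalings, covariates, and leaving out libraries. On simulated data for M-HF-Ex against NC-Sed (13499 genes), limma found 65% of 100 genes changed 2-fold and 96% of 100 changed 4-fold. The changed genes were drawn from those with a mean over 50, and 12 unchanged genes were called too. Most of the 10 clock genes varied more within groups than the median gene, so these shares are not the power for them. Correlations used scipy 1.17.1 under Python 3.11.15 with 100000 resamples, or all orders within groups. Replicate numbers follow the order of deposition and pair nothing. No pair of libraries of the same group agreed within counting noise (chi-square per degree of freedom of at least 16.3), and pairs across groups were not compared.

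The 10 genes and the lists were chosen with earlier results of these data known. Named genes were the 10, the other clock genes, the 3 genes of each other list with the smallest F test p, and the 8 most like Arntl and Dbp. The relations of listed genes to Arntl and Dbp, and those within title codes, were chosen after seeing the data, as were the genes named from them. Some genes of these lists are not reported here, though the counts include them.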

Additional observations from a re-analysis of the deposited data

How the results depend on the processing

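None of the 10 clock genes passed in any of the 274 counts over comparisons and settings, nor when any 1 of the 15 libraries was left out (0 to 0 genes). Of 2362 alternative differences of single genes over 30 alternatives, 170 had the other sign, 73 moved by over 1 standard error and 0 passed. The lowest adjusted p was 0.0938 by limma, for Cry2 in P-HF-Ex against P-HF-Sed with the title code as a covariate (1.04). That covariate could not be fitted for comparisons of M-HF-Ex or M-HF-Sed with NC-Sed, of M-HF-Sed with P-HF-Sed, or for the 5-group test, and a fit of only the groups compared gives no 5-group test. The r of Arntl with Dbp ran from -0.91 to -0.876 without 1 library, and it was -0.904 within title codes, with an adjusted p of 0.0694 by exact permutation from fewer libraries (12). The r of Arntl with Nr1d1 ran from 0.291 to 0.64, and at 0.64, without P-HF-Ex replicate 2, it passed (permutation, adjusted p = 0.0472), and the cause was not tested. Taken from log2 Dbp minus log2 Arntl alone, the distance of the clock index from its median was -2.11 in M-HF-Ex replicate 3, -1.06 in P-HF-Ex replicate 2 and -1.15 in P-HF-Ex replicate 3. Over all genes, where the limma fit of the report called 0 in each comparison, DESeq2 called 60 in M-HF-Ex against M-HF-Sed, 18 in M-HF-Sed against NC-Sed, 65 in P-HF-Ex against NC-Sed, 1 in P-HF-Ex against P-HF-Sed and 186 among the 5 groups. Limma called 109 in M-HF-Ex against M-HF-Sed without M-HF-Sed replicate 1. With a term for the title code, that comparison rested on M-HF-Ex replicate 3, the only M-HF-Ex library to share a code with M-HF-Sed. P-HF-Ex against P-HF-Sed rested on P-HF-Ex replicate 2 in the same way, and the difference of the exercise effects on both libraries. Limma called some genes in these fits, where group and single library cannot be told apart. No other setting called more than 1 gene in a comparison, and none of the calls was one of the 10. No paired analysis was possible because the labels give no replicate numbers shared between groups, and the title code, which joins some libraries of different groups, was used as a covariate instead. Reads limit Npas2 most (21 to 76 per library).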
